A study of Mus musculus with 5 samples.

Results

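The formyl peptide receptor genes Fpr1, Fpr2 and Fpr3 span 95.2 kb of mouse chromosome 17. They were taken by name, and every peak inside them or within 50 kb of them was listed for each of 4 chromatin immunoprecipitation sequencing (ChIP-seq) libraries. These 3 genes stand among 21887 protein-coding genes of the RefSeq table, and 4 of the 115354 listed peaks fell in their neighbourhood. The genes were chosen by peak position, because a c-Maf antibody site near Fpr2 was already known in these data, so the values below describe that site and test nothing. The site is held by both anti-c-Maf libraries and by neither isotype library, and it sits 6.9 kb beyond the 3′ end of Fpr2, outside any annotated gene.

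The groups were 2 libraries precipitated with an antibody to c-Maf (anti-c-Maf libraries 3 and 4), 2 libraries precipitated with normal rabbit IgG as control (isotype libraries 3 and 4), and 1 input library (number 4), which enters only as the control of the peak calls. All came from C57Bl/6 bone marrow macrophages (BMM) that the source labels call M2, polarized in vitro, while the sample titles carry M0 for every library, so the activation state rests on the source labels. The labels give no genotype, mutation, treatment dose, time or age for any group, and the design text calls the numbers biological replicates. Peak lists hold no RNA level, so neither expression of the receptors nor the cell type was measured here.

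Formyl peptide receptors are G protein-coupled receptors that bind peptides beginning with formylmethionine, which bacteria and mitochondria make. On neutrophils and macrophages they couple to Gi proteins and drive chemotaxis and the oxidative burst. Fpr1 encodes the high-affinity receptor for formyl peptides. Fpr2 encodes a receptor with a broad ligand range that includes annexin A1 and serum amyloid A. Fpr-rs3, Fpr-rs4, Fpr-rs6 and Fpr-rs7, further mouse copies of the family, are known from vomeronasal sensory neurons. c-Maf is a basic leucine zipper transcription factor of macrophages and some lymphocytes that binds Maf recognition elements, in which the letters TGCTGA stand on one side.

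In mm10 coordinates Fpr1 occupies 17876471 to 17883939 on the minus strand (7469 bp) and Fpr2 occupies 17887824 to 17893952 on the plus strand (6129 bp). Their start sites lie 3885 bp apart, and the genes are read away from each other. Fpr3, of 1220 bp on the plus strand at 17970458 to 17971677, follows Fpr2 after a gap of 76.5 kb. That gap holds the pseudogenes Gm7531, Gm9481, Gm7535 and Gm5966 and no other annotated gene. On the Fpr1 side, within 50 kb, lie Spaca6, a gene for sperm-egg fusion, Has1, which encodes a hyaluronan synthase, the long noncoding RNA gene Gm36907 and the microRNA genes Mir99b, Mirlet7e and Mir125a. Fpr-rs5, a pseudogene, lies within 50 kb of Fpr3. No peak of any library overlapped any of these genes, 14 with the receptors. The share of all genes without a peak inside was not computed, so this cannot be called particular to them. Each receptor gene is also shorter than the median protein-coding gene, of 17169 bp.

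The promoters of the 3 receptors are shown because they hold none of the neighbourhood's peaks: in all 4 lists these windows are empty. The share of all promoter windows without a peak was not computed, so emptiness cannot be called particular to these genes. The windows run from 250 bases before to 50 bases after each annotated start (RefSeq, GRCm38.p6, 5′ to 3′ on the gene's strand). An annotated start may differ from the true start of transcription. Capitals mark a match to the Maf sequence TGCTGA, to the AP-1 core TGAGTCA or to the ETS core GGAAGT, each searched on both strands. The first may share its last letters with the second, which did not occur in the promoters of these 3 genes.
Fpr1 (chr17:17883890-17884189, minus strand): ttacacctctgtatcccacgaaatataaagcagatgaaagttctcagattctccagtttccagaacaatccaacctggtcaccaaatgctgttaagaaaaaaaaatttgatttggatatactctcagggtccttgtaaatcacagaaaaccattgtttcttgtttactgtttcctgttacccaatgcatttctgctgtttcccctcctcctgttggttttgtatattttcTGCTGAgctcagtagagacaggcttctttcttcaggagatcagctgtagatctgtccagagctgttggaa
Fpr2 (chr17:17887574-17887873, plus strand): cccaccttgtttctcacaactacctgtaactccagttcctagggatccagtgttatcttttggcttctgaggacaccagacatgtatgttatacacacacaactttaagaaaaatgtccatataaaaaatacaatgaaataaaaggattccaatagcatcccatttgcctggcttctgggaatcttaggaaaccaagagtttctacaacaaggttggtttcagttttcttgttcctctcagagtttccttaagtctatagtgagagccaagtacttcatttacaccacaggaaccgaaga
Fpr3 (chr17:17970208-17970507, plus strand): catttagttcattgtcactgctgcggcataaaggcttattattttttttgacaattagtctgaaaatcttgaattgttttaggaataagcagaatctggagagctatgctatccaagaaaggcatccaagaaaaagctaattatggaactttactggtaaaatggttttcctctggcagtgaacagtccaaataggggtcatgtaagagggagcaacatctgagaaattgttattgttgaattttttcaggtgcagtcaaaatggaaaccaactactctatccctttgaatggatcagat

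Only the Fpr1 promoter of these 3 held a match, to TGCTGA, which starts at base 231 of its 300. The same letters occurred in 18.1% of 21263 promoter windows of protein-coding genes, TGAGTCA in 4.66% and GGAAGT in 24.8%. Among the other protein-coding copies of the family, Fpr-rs3, Fpr-rs4, Fpr-rs6 and Fpr-rs7, each window held TGCTGA at base 241. Fpr-rs6 and Fpr-rs7 also held the AP-1 core, and Fpr-rs4 also held the ETS core. In each of these windows the annotated start, base 251, falls on the letters atg, so the annotation may begin at the coding sequence. The windows may then not be promoters, and the shares above are no measure for them. The ETS match of Fpr-rs4, at base 253, lies past that start. In the Fpr3 window, atg and letters much like those of these copies follow soon after base 251. The Fpr3 window may therefore also not be a promoter, and the same caution holds for it. Copies of one gene family are not independent occurrences. At the tag size of 50 bases, no stretch of the Fpr1, Fpr2 or Fpr3 promoter recurred in another promoter window, whereas 42 of 251 stretches of the Fpr-rs6 and of the Fpr-rs7 window did. The sequence of the c-Maf antibody site itself was not analysed here.

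The 4 peaks of the neighbourhood were 2 in anti-c-Maf library 3, 1 in anti-c-Maf library 4, 1 in isotype library 3 and 0 in isotype library 4. The stretch searched covers 195.2 kb. At the mean density of each list along the assembled chromosomes, a stretch of this length would hold 1.66 and 1.25 peaks in the anti-c-Maf lists of numbers 3 and 4, against 4.19 and 1.1 peaks in the isotype lists of numbers 3 and 4. The counts therefore lay near the mean density in the anti-c-Maf lists and below it in the isotype lists. Each list was called separately, from 21655683 to 22017759 filtered tags a library, and the number of peaks was 23434 and 17620 in the anti-c-Maf lists and 58732 and 15568 in the isotype lists (numbers 3 and 4).

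The site near Fpr2 was recovered at nearly the same strength in both anti-c-Maf libraries. In number 3 the peak ran from 17900854 to 17901003 (150 bp), with its summit at 17900907, a pileup of 7.76 scaled tags and a fold enrichment over input of 5.53. In number 4 it ran from 17900845 to 17900957 (113 bp), with its summit at 17900882, a pileup of 7.89 and a fold enrichment of 5.71. These scores are the authors' own. So are all other pileups, enrichments, p-values and q-values here, except those recomputed with the MACS mouse genome size. The peaks shared 104 bp, which is 69.3% of the peak of number 3 and 92.0% of that of number 4, and their summits stood 25 bp apart.

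Undoing the scaling, computed from the tag totals in the file headers, gave 8 tags at the summit in each anti-c-Maf library. The exact 95% Poisson interval of 8 tags runs from 3.45 to 15.76 tags and covers counting error only. The input level at the site, recovered from the enrichment, was 0.585 scaled tags in the list of number 3 and 0.557 in that of number 4. Both lists use the same input library, so this part of the enrichment is shared between them. The p-value was 2.05e-07 in number 3 and 1.42e-07 in number 4, and the q-value was 0.037 and 0.0366. Both therefore passed a q-value of 0.05, by a small margin.

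No isotype library had a peak at the site. The nearest isotype peaks were 95.9 kb away in number 3 and 76.6 kb away in number 4. The isotype lists record peaks and not tags at every position, so the isotype level at the site is not given. Among the 10309 isotype peaks whose input level was at least that of the site, the weakest had 4 tags, in either isotype list. The interval of 8 tags reaches down to 3.45, close to that level, and no test of 2 libraries against 2 was made.

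**Figure D1:**
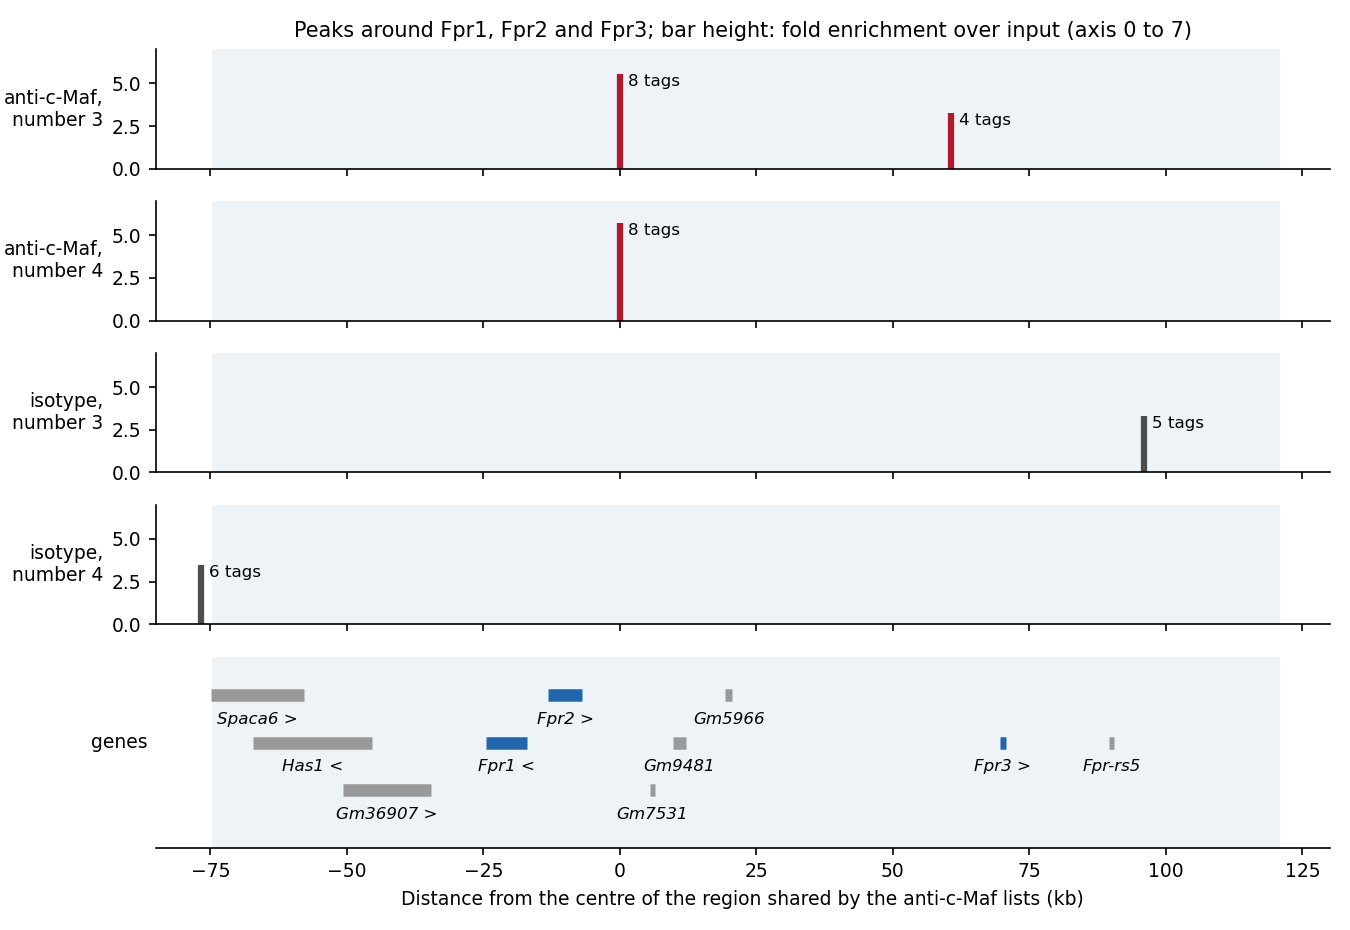
Peaks of the 2 anti-c-Maf lists and the 2 isotype lists around Fpr1, Fpr2 and Fpr3, by distance in kb from the centre of the shared region; bar height is the fold enrichment over input, the shaded span is the 195.2 kb searched, and arrows beside gene names give the strand where the table has it (the microRNA genes and Gm7535 are not drawn). The bars at 0 kb, of 8 tags each, appear in both anti-c-Maf lists and in neither isotype list, and the isotype peak of number 4 lies just outside the shading.

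The merged region, chr17:17900845-17901003 (159 bp), sits downstream of Fpr2, 13.1 kb from its start site. It is 16.9 kb from the start side of Fpr1, and the whole Fpr2 gene lies between the region and Fpr1. The distance to Fpr3 is 69.5 kb, beyond the 50 kb limit. The nearest annotated feature of any kind is the pseudogene Gm7531 at 5.4 kb, and Fpr2 is the nearest protein-coding gene. Within 50 kb of it lie 3 protein-coding genes, Fpr1, Fpr2 and Has1, the last at 45.3 kb. No other region held by both anti-c-Maf libraries and neither isotype library was nearer than 4527.3 kb on this chromosome, which has 17 such regions with this one.

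The remaining peaks of the neighbourhood were weaker and held by 1 list each. In anti-c-Maf library 3, a peak at 17961500 to 17961562 lay 8.9 kb upstream of Fpr3, with 4 tags at its summit (95% Poisson interval 1.09 to 10.24), a fold enrichment of 3.25 and a q-value of 1.0. Number 4 had no peak there, and its nearest peak to Fpr3 was the site near Fpr2. Isotype library 3 had a peak at 17996937 to 17996989, which is 25.3 kb downstream of Fpr3, with 5 tags (1.62 to 11.67), a fold enrichment of 3.28 and a q-value of 1.0. Both peaks had the shortest length of their list, 63 bp and 53 bp, which is the fragment length that MACS estimated for that library. Up to 51.7% of the peaks of a list had that shortest length, whereas the peaks near Fpr2 were longer than the median peak of 63 bp in number 3 and 60 bp in number 4. The estimated fragment lengths, 53 to 63 bp over the lists, lie near the tag size of 50 bases. They fall below the recorded sonication range of 100 to 500 bp. How this affects pileups, peak lengths and input levels was not tested.

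At the 50 kb limit, the farthest peak counted was the isotype peak 25.3 kb from Fpr3, and the first one left out was an isotype peak of number 4 at 17824216 to 17824271, 52.2 kb from Fpr1, with 6 tags and a fold enrichment of 3.44. The next were an anti-c-Maf peak of number 4 at 68.5 kb from Fpr1, with 5 tags, and a pair of number 3 peaks, anti-c-Maf and isotype, that overlapped each other, 77.1 kb from Fpr1. All these peaks had a q-value of 1.0.

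**Figure D2:**
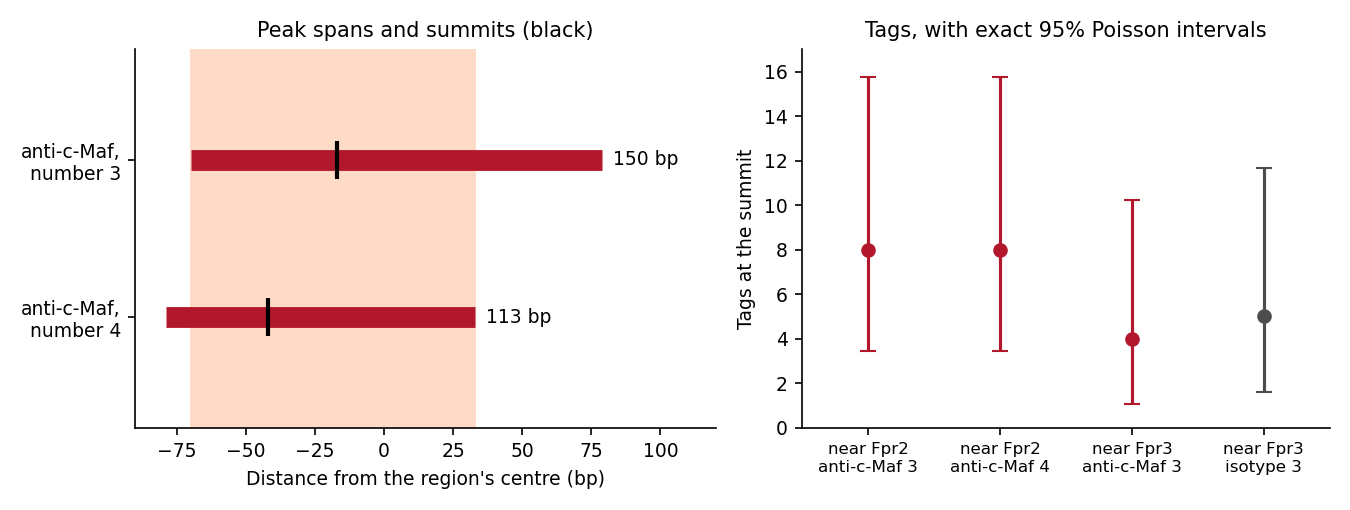
Left, the spans of both anti-c-Maf peaks near Fpr2 by distance in bp from the region's centre, with summits in black and the shared 104 bp shaded; right, tags at the summit of the 4 peaks of the neighbourhood with exact 95% Poisson intervals. The summits stand 25 bp apart, and the intervals of all 4 peaks overlap.

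By gene, Fpr1 and Fpr2 each had 1 peak within 50 kb in each anti-c-Maf library, the same site, and 0 in either isotype library. Fpr3 had 1 peak in anti-c-Maf library 3, 0 in number 4, 1 in isotype library 3 and 0 in number 4. Among all protein-coding genes, 66.7% and 53.8% had a peak that near in the anti-c-Maf lists of numbers 3 and 4, against 85% and 47.3% in the isotype lists. A region of both anti-c-Maf libraries and neither isotype library, called a c-Maf-exclusive region from here on, lay within 50 kb of 2 of the 3 receptor genes, and 3.17% of all protein-coding genes have one at that distance. Within 10 kb the count was 1, Fpr2, beside 1.48% of all genes. Within 5 kb it was 0, beside 1.22%, and inside a gene it was 0, beside 0.946%. Regions of both isotype libraries and neither anti-c-Maf library, called isotype-exclusive, were counted for 0 of the 3 receptors at each distance, beside 1.45% of all genes within 50 kb, 0.681% within 10 kb, 0.585% within 5 kb and 0.48% inside a gene. Since the genes were picked for this site, these counts carry no weight against the shares.

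Among all 491 c-Maf-exclusive regions the site near Fpr2 was in the upper part of the range. Ordered by the mean within-list percentile of the p-value it ranked 43. Its peak was number 663 of 23434 by p-value in number 3, in the top 2.83%, and number 481 of 17620 in number 4, in the top 2.73%. The median c-Maf-exclusive region had a fold enrichment of 4.31 in number 3 and 4.02 in number 4, and the ranges were 1.51 to 15.49 and 1.55 to 11.30. Counted with itself, 32 regions reached in both libraries at least the site's lower enrichment of 5.53. The site was 1 of 36 c-Maf-exclusive regions that passed a q-value of 0.05 in each list, and 0.155% of protein-coding genes had such a region within 10 kb.

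Both libraries gave nearly the same enrichment at this site. Its enrichment in number 4 was 1.033 times that in number 3, while the quartiles of this ratio over the 491 regions were 0.777 and 1.158, with a median of 0.952. In 69 of the 491 regions the libraries differed by no more than here. With 8 tags in both libraries, the ratio at the site comes from the scaling and the input level alone. The region inside Slc22a29, also with 8 tags in each, had enrichments of 5.53 in number 3 and 5.73 in number 4. The closeness of the values therefore says only that the tag counts were equal. The counting interval of 8 tags is wide beside such differences.

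**Figure D3:**
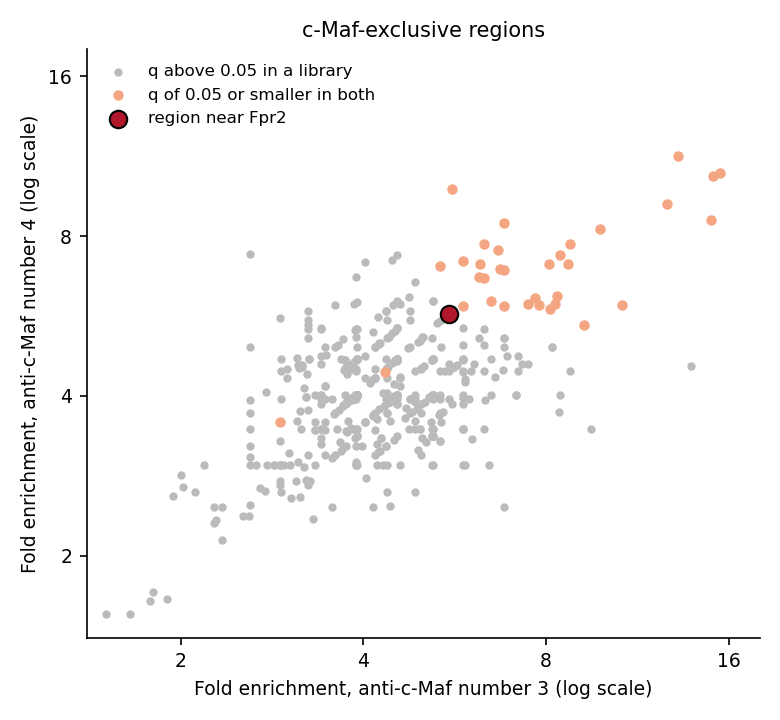
Fold enrichment of each of the 491 c-Maf-exclusive regions in the anti-c-Maf libraries 3 (x axis) and 4 (y axis), both on log scales; the 36 regions that pass a q-value of 0.05 in each are coloured. The site near Fpr2, at 5.53 and 5.71, lies at the lower edge of the main cloud of coloured points.

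The 5 genes whose c-Maf-exclusive region was closest to the site in mean percentile, over 2 libraries and within 10 kb of a protein-coding gene, lay on 5 chromosomes. Slc22a29, a solute carrier gene on chromosome 19, held a region inside the gene with 8 tags and a fold enrichment of 5.53 in number 3 and 8 tags and 5.73 in number 4. Zmiz1, which encodes a transcriptional coregulator, held one with enrichments of 5.35 and 5.54. Mapre2, a microtubule end-binding protein gene, held one with 5.30 and 5.48. The region 1.9 kb outside Ssbp4, a single-stranded DNA-binding protein gene, had 6.32 and 5.36. A region 8.6 kb from Gm21149 reached a similar rank from many more tags, 22 in number 3 and 20 in number 4, at enrichments of 3.19 and 4.15. The likeness is one of peak strength only.

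The other formyl peptide receptor genes had no c-Maf-exclusive region within 50 kb, 0 of 4, beside 3.17% of all protein-coding genes. In anti-c-Maf library 4, Fpr-rs3 had a peak 6.5 kb away, with 4 tags and a fold enrichment of 3.35. Number 3 had none within 50 kb of Fpr-rs3, Fpr-rs4, Fpr-rs6 or Fpr-rs7. Isotype library 3 had peaks within 50 kb of all 4, from 1 peak at Fpr-rs7 to 3 peaks each at Fpr-rs3, Fpr-rs4 and Fpr-rs6, and isotype library 4 had none. Over all genes the shares with a peak that near were 85% and 47.3% in these 2 isotype lists. In the anti-c-Maf lists of numbers 3 and 4 they were 66.7% and 53.8%. A peak can count for more than 1 gene. The isotype peak at Fpr-rs7 is also within 50 kb of Fpr-rs6, and that nearest Fpr-rs4 is the one described above near Fpr3. The list of isotype number 3 is the longest of the 4.

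Genes that act with the receptors were described from 5 lists with 43 genes, the other receptors included. A c-Maf-exclusive region lay within 50 kb of 6 of the 43 genes, beside 3.17% of all protein-coding genes, and within 5 kb of 4, beside 1.22%. Isotype-exclusive regions lay within 50 kb of 0 of the 43, beside 1.45%. At a q-value of 0.05 in both libraries, the count within 50 kb was 0 of 43, beside 0.302% of all genes. The gene lists were chosen with earlier results of these data known, so these counts carry no weight against the shares. The same holds for each gene list below. In the single lists these genes were not rich in peaks: 22 and 20 of 43 had a peak within 50 kb in the anti-c-Maf lists of numbers 3 and 4, and 31 and 16 in the isotype lists of numbers 3 and 4, all below the shares over all genes given above.

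Of 6 ligand genes, which include Anxa1, Camp and the serum amyloid A genes, 0 had a c-Maf-exclusive region within 50 kb, and of 9 further chemoattractant receptors 2 had one, beside 3.17% of all genes. At a q-value of 0.05 in both libraries neither list kept a gene, 0 of 6 and 0 of 9, beside 0.302%. Cmklr1, which encodes the chemerin receptor, held a region inside the gene with 10 tags and a fold enrichment of 5.89 in number 3, and 7 tags and 4.30 in number 4. Ccr1, a receptor for CC chemokines, had its region 29.8 kb away, with 16 tags and 5.98 in number 3 and 11 tags and 3.95 in number 4.

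Among 19 genes of G protein signalling and receptor shut-off, 3 had a region within 50 kb, beside 3.17% of all genes, and 2 within 5 kb, beside 1.22%. Arrb2, which encodes beta-arrestin 2, held one inside the gene, with enrichments of 5.84 in number 3 and 4.44 in number 4. The region counted for Grk2, a receptor kinase gene, was 2.1 kb away and lay inside Ankrd13d, with 3.75 and 3.23. That counted for Rac1, a GTPase gene of cell migration, was 29986 bp away and lay inside Daglb, with 5.54 and 3.95. Of 5 NADPH oxidase genes, which make the oxidative burst, 1 had a region at either distance, beside the same shares: Ncf1, the gene of the p47phox subunit, at 1.8 kb, with 4.43 and 3.90. In all 6 regions the enrichment was lower in number 4 than in number 3. The opposite order at the site near Fpr2 is not an order of tags, since both libraries had 8 tags there. It reflects the scaling and the input level of each list. Nor is that order particular to the site, since 4 of the 5 regions closest to it in percentile share it.

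**Figure D4:**
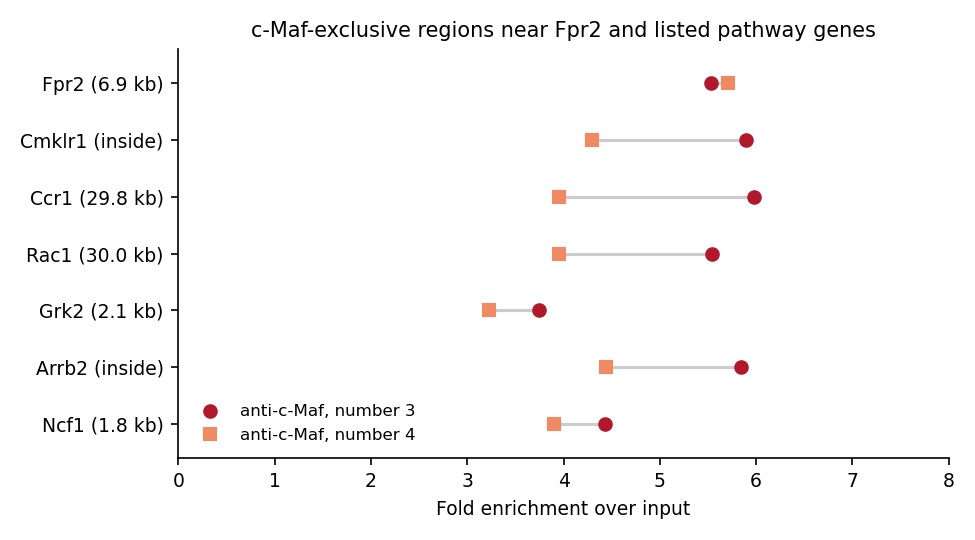
Fold enrichment over input of the c-Maf-exclusive region near Fpr2 and of those within 50 kb of 6 listed pathway genes, in the anti-c-Maf libraries 3 (circles) and 4 (squares), with the distance to the gene in brackets. The values near Fpr2, 5.53 and 5.71 from 8 tags each, are the closest pair, and in the other 6 regions number 4 is the lower.

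For macrophage marker genes, a c-Maf-exclusive region lay within 5 kb of 3 of 8 (Csf1r, Itgam and Mertk), beside 1.22% of all genes. For markers of other cell types the count was 1 of 6, beside the same 1.22%, namely Cdh5, an endothelial cadherin gene. At a q-value of 0.05 in both libraries the counts within 50 kb were 0 of 8 and 0 of 6, beside 0.302%. The marker lists were chosen with earlier results of these data known, so these counts carry no weight against the shares. Peaks near a gene do not show that it is expressed.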

How the data were processed

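Peak lists of 2 c-Maf antibody and 2 isotype ChIP-seq libraries were used. Per the file headers, the authors called peaks in each library with MACS 2.1.1.20160309 against the number 4 input, at a p-value of 0.01, keeping 1 tag per position and scaling the larger library down. The headers name the human effective genome size. The submitters' processing notes name mm10. The aligner was not given in the sources used here. For every peak the deposited columns give a pileup signal, a fold enrichment (a ratio with 1 added to pileup and input level), and −log10 p-values and q-values. A header line says that q-values are not calculated, yet the deposited column holds them.

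Pileups divided by the header scaling gave whole tags within 0.05 for 100.0% of peaks in each list, and p-values recomputed from the derived input level matched within 0.02 (−log10) for at least 99.99%. Depth was 21655683 to 22017759 tags. Merging peaks that shared 1 bp or more gave 111856 regions. Distances run from the gene span (RefSeq, GRCm38.p6, which has the coordinates of mm10). The merging was tested on simulated peaks. Members and gene lists were chosen with earlier results of these data known, so no test was made. Named are the 3 receptors, all genes within 50 kb of them, listed genes with a region within 50 kb, and the 5 genes most like Fpr2. Analyses used Python 3.11.15, pandas 2.3.3 and SciPy 1.17.1.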

Additional observations from a re-analysis of the deposited data

How the results depend on the processing

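The c-Maf-exclusive region near Fpr2 was found again at p of 1e-05, at q of 0.05, at equal list lengths, at 50% reciprocal overlap, with summits within 200 bp and within 10 kb. These outcomes were fixed by the site's p-values, q-values, ranks, overlap, summit distance and gap to Fpr2 given above. They add no support. Within 5 kb there were 0 regions and 0 anti-c-Maf peaks. Without 1 of the libraries, c-Maf-exclusive regions near the receptors ranged from 1 to 2 (2 without anti-c-Maf library 4), isotype-exclusive regions from 0 to 1 (1 without isotype library 4), anti-c-Maf peaks from 1 to 3, and isotype peaks from 0 to 1. At p of 1e-05, at q of 0.05 and at equal list lengths both peaks near Fpr3 were lost, which left 2 anti-c-Maf peaks and 0 isotype peaks. The isotype count was also 0 within 10 kb and within 5 kb. The share of protein-coding genes with a c-Maf-exclusive region within 10 kb was 0.283% at p of 1e-05, 0.164% at q of 0.05, 1.25% at equal list lengths, 0.886% at 50% reciprocal overlap and 1.69% with summits within 200 bp, and lay between 1.54% and 34.3% without 1 of the libraries, because a lone list is not filtered by a replicate. Pathway genes with a region numbered 1 at p of 1e-05, 0 at q of 0.05 and 3 at 50% reciprocal overlap, and lay between 6 and 22 without 1 of the libraries (19 without anti-c-Maf library 3, 22 without that of number 4). Stricter settings keep fewer peaks by construction.

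With the MACS mouse genome size, an alternative chosen after seeing the data, the floor of the input level rises and the enrichment near Fpr2 becomes 5.09 in number 3 and 5.27 in number 4, with −log10 p-values of 6.02 and 6.18; q-values could not be recomputed. No label says that same-numbered libraries share an animal or day. With the number as a replicate block (each list first set against the other antibody's list of its number, also chosen after seeing the data), the region near Fpr2 was again the 1 found, with 0 isotype-exclusive regions, 6 pathway genes and a share of 1.48%. At 8 tags a library, the depth limits every value at the site.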
